A study of Mus musculus with 18 samples.

Results

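The zona pellucida genes *Zp1*, *Zp2* and *Zp3* were followed across oocyte stages in mice, *in vivo* and *in vitro*. The rule names them by gene symbol, as the genes that encode the mouse egg coat, and uses no measured value. They were nonetheless chosen with earlier results of these data known. They are 3 of the 53715 genes in the deposited count table, and all 3 are also among the 28252 genes of the deposited TPM table (a unit that divides counts by gene length and by library size). RNA was measured to ask how ovarian culture alters oocyte transcriptomes. There were 18 libraries, 3 for each of 6 groups. All animals were female mice of the C57Bl/6j x CBA/J cross, and the labels name no allele and no treatment other than growth *in vivo* or *in vitro*.

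Oocytes of primordial follicles and of primary follicles were cut with a laser from fixed and stained sections of ovary (laser capture microdissection, LCM), and RNA of many oocytes of a stage was pooled. The *in vivo* groups of these stages came from non-cultured ovaries of 14-day-old mice. The *in vitro* groups came from ovaries of 7-day-old mice that were cultured for 7 days in α-MEM with serum and FSH. The *in vivo* MII (metaphase II) oocytes came from adult mice superovulated with hormones, whereas the *in vitro* MII oocytes came from follicles of cultured ovaries that were grown in alginate for another 12 days and triggered with hCG. Each MII library held 10 oocytes. The MII groups thus differ in the age of the animals as well as in culture. LCM and MII libraries were made with different extraction and library kits, so stage and kit cannot be told apart between them and no test was run across them. The labels do not say that replicates came from separate animals, so all p-values rest on the spread between libraries, which may be technical. In the main fitted tests of LCM libraries (edgeR) that spread is a trend over all genes, not that of each zona gene alone.

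The zona pellucida is the glycoprotein coat that the growing oocyte secretes around itself. ZP2 and ZP3 build its filaments, ZP1 crosslinks them, and sperm bind to the N-terminal region of ZP2. ZP3 and ZP2 are needed for a lasting coat and for female fertility in mice, whereas a coat without ZP1 forms but is thinner and looser. Transcription of all zona genes depends on FIGLA, an oocyte factor that binds E-boxes with a partner such as TCF3, and it starts as resting oocytes enter growth.

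*Zp1* (ENSMUSG00000024734.8) lies on the minus strand of chr19:10914287-10920632 in GRCm38 (mm10), and its 12 merged exons cover 1981 bases. *Zp2* (ENSMUSG00000030911.7) lies on the minus strand of chr7:120126772-120145291, with 18 merged exons of 2724 bases in all. *Zp3* (ENSMUSG00000004948.12) lies on the plus strand of chr5:135980099-135988624, with 8 merged exons of 1323 bases in all. No other annotated gene overlaps any of them in GENCODE release 21, so the counts are not shared with an antisense or overlapping gene. The RefSeq promoter table matched 1 of the 3 genes, *Zp3*. Its 250 bases upstream of the start (GRCm38.p6, plus strand, chr5:135979855-135980104) are printed because FIGLA is known to act through E-boxes, whose letters CANNTG are in capitals.
Zp3 promoter: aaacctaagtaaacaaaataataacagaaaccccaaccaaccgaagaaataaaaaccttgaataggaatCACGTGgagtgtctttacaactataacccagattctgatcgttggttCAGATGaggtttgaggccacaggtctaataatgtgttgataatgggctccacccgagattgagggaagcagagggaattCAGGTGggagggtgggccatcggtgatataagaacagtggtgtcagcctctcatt
The E-box letters stand at −181 as CACGTG, at −134 in the form CAGATG and at −55 in the form CAGGTG, counted by their first base from the RefSeq start. They are common: 66.2% of 32851 promoter windows of the same 250 bases hold CANNTG, which reads the same on both strands as a pattern. For the TATA box only the exact letters TATAAA were searched, on both strands. A variant of them, such as the letters tataag in the sequence above, was not counted. The exact letters are not in this window, and 12.4% of all windows hold them. The homeodomain letters TAATTA are not in it either (4.84% of all windows hold them), nor is the variant written TAATTG (7.17%).

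Depth was high enough to count all 3 genes everywhere. The LCM libraries had totals of 15149564 to 29205503 counts and those of MII oocytes 7334817 to 9978830, which puts the floor of 3 counts at 0.103 to 0.198 CPM and 0.301 to 0.409 CPM (CPM, counts scaled to the library total). The lowest value of any zona gene was 20 counts, so no library fell to that floor, which covers counting error only. Genes detected numbered 6048 to 13755 per LCM library and 14512 to 18239 per MII library. Oocyte markers were present in every group, with summed TPM of 568 to 949 in *in vivo* and 102 to 1978 in *in vitro* primordial oocytes, 612 to 1727 and 499 to 1186 in primary oocytes, and 40842 to 88198 in MII oocytes. Only *Oosp1* of the 15 oocyte markers found was at 0 in all libraries of a group, the *in vivo* primordial oocytes. However, only 9 of the 15 were above 3 counts in all libraries of each primordial group. In *in vivo* primary oocytes 12 were, and in the other groups all 15. In replicate 1 of the *in vitro* primordial oocytes, *Uchl1* held 70.3 of the 102 TPM. Markers of other ovarian cells were present in the LCM libraries too. Granulosa markers summed to 181 to 933, 389 to 2341, 501 to 998 and 1220 to 3160 TPM in the *in vivo* primordial, *in vitro* primordial, *in vivo* primary and *in vitro* primary groups, and the granulosa marker *Fshr* was at 0 in all of them. Theca and stroma markers were at 454 to 3525 TPM in 11 LCM libraries, whereas replicate 2 of the *in vivo* primary oocytes had 29982 TPM, led by the smooth muscle actin gene *Acta2*. Surface epithelium markers were at 0.0731 to 1048 TPM in *in vivo* and 0.0878 to 354 TPM in *in vitro* primordial oocytes. In primary oocytes they were at 0 to 358 TPM *in vivo* and 120 to 4285 TPM *in vitro*. The highest sums were in replicate 1 of both primordial groups and replicate 2 of both primary groups. As the libraries were bulk RNA, fewer oocytes in a pool and less zona RNA per oocyte cannot be told apart.

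Replicate 2 of the *in vitro* primordial oocytes stood apart from the other replicates of its group in oocyte genes. It had the highest CPM of the 12 LCM libraries for all 3 zona genes, whereas it was the highest library for 9.58% of the 15317 genes tested. It was also the highest for 6 of 9 tested genes of oocyte-secreted and zona-region proteins (*Gdf9*, *Oosp1*, *Ooep*, *Nlrp5*, *Khdc3* and *Zar1*), and it had the most total counts. *Gdf9*, a growth factor that oocytes secrete from the primary stage on, had 7061 counts in it and 32 and 5 counts in replicates 1 and 3. Differences of the zona genes that involve this library are therefore given with and without it.

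*Zp1*, the crosslinker, was the zona gene with the widest range as a fold, from 1.37 to 322 TPM over all libraries. In primordial oocytes grown *in vivo* it was at 3.01, 38.4 and 1.37 TPM in replicates 1, 2 and 3 (41, 536 and 20 counts), and in those grown *in vitro* at 278, 322 and 49.8 TPM (2599, 5427 and 635 counts). All *in vitro* values were above all *in vivo* values, and within the *in vivo* group replicate 2 was 28.0 times the lowest replicate. In primary oocytes *Zp1* was at 98.8, 67.3 and 209 TPM *in vivo* and at 60.4, 173 and 101 TPM *in vitro*. MII oocytes had 102, 125 and 148 TPM *in vivo* and 74.0, 140 and 119 TPM *in vitro*. The primary and MII groups overlapped each other, and all *in vivo* primordial libraries lay below all of them. Ordered by median TPM, *Zp1* went from 278 in *in vitro* primordial oocytes through 125 and 119 in *in vivo* and *in vitro* MII oocytes and 101 and 98.8 in *in vitro* and *in vivo* primary oocytes to 3.01 in *in vivo* primordial oocytes. Of these 5 steps, the last was the one whose neighbouring groups did not overlap.

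*Zp2*, which carries the sperm-binding region, was the zona gene with the lowest median TPM in 5 of the 6 groups. It was at 7.10, 9.31 and 2.84 TPM in *in vivo* primordial oocytes (133, 179 and 57 counts) and at 9.80, 37.1 and 6.16 TPM in *in vitro* primordial oocytes (126, 860 and 108 counts). These groups overlapped, and replicate 2 of the *in vitro* group stood above the rest. Primary oocytes had 12.8, 8.95 and 29.5 TPM *in vivo* and 22.3, 12.7 and 15.7 TPM *in vitro*. MII oocytes had 32.2, 40.0 and 48.8 TPM *in vivo* and 15.2, 69.6 and 55.1 TPM *in vitro*. The *in vivo* MII group lay above both primary groups, whereas replicate 1 of the *in vitro* MII oocytes, with 15.2 TPM, lay among them. The median TPM went from 55.1 and 40.0 in *in vitro* and *in vivo* MII oocytes to 15.7 and 12.8 in *in vitro* and *in vivo* primary oocytes and to 9.80 and 7.10 in *in vitro* and *in vivo* primordial oocytes. Among neighbours in this order, the step from *in vivo* MII to *in vitro* primary oocytes, which is also a step between kits, was the one without overlap.

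*Zp3*, the filament partner of ZP2, was at 10.8, 8.04 and 4.61 TPM in *in vivo* primordial oocytes (98, 75 and 45 counts). In *in vitro* primordial oocytes it was at 19.4, 187 and 7.40 TPM (121, 2108 and 63 counts), a 25.3-fold range within 1 group. Replicate 3 was within the *in vivo* range. Replicate 2 was just above the lowest MII library in TPM (172). Its 77.9 CPM was below the 96.6 to 241 CPM of the MII libraries, which were made with another kit. Primary oocytes had 88.8, 48.1 and 84.2 TPM *in vivo* and 59.2, 59.9 and 73.0 TPM *in vitro*, an overlapping and much narrower spread. MII oocytes had 172, 504 and 272 TPM *in vivo* and 328, 237 and 499 TPM *in vitro*. By median TPM the order was 328 and 272 in *in vitro* and *in vivo* MII oocytes, 84.2 and 59.9 in *in vivo* and *in vitro* primary oocytes, and 19.4 and 8.04 in *in vitro* and *in vivo* primordial oocytes. The step from *in vivo* MII to *in vivo* primary oocytes, again between kits, was the one in which neighbours did not overlap. In MII oocytes *Zp3* was among the most abundant transcripts, with 1.63% to 5.31% of the genes above 0 ranking higher, compared with 6.13% to 9.58% for *Zp1* and 11.5% to 29.1% for *Zp2*.

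**Figure D1:**
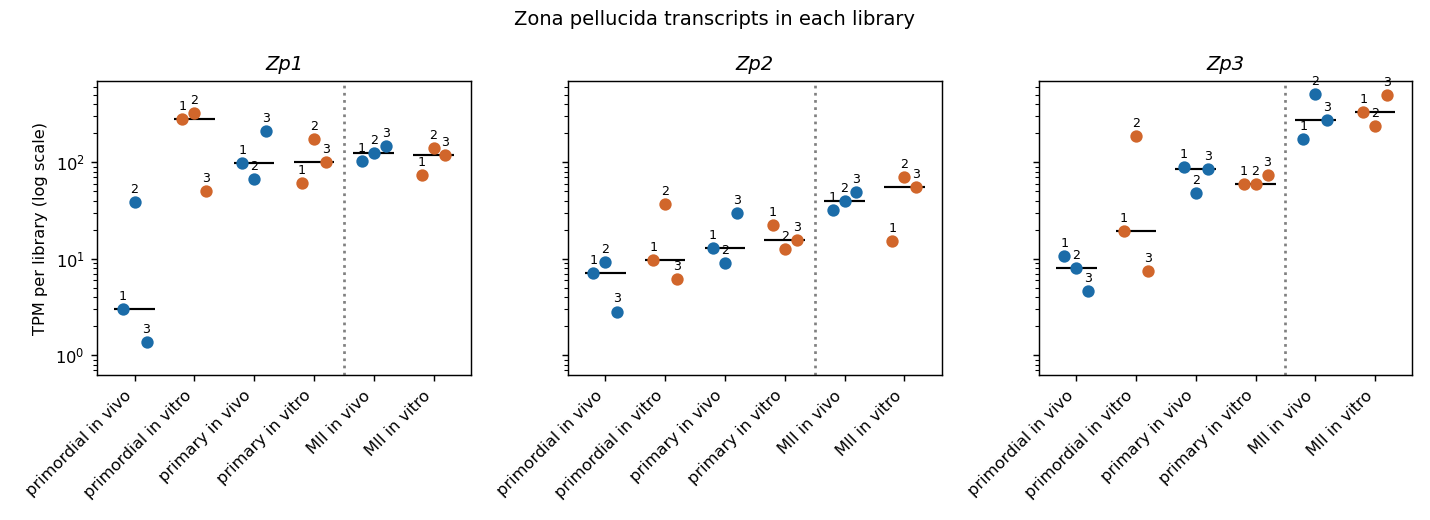
TPM on a log axis for each gene, with 1 numbered point per replicate library, a bar at the group median, blue for *in vivo* and orange for *in vitro*; the dotted line separates LCM from MII libraries, which were made with different kits. *Zp1* was at 1.37 to 38.4 TPM in *in vivo* and 49.8 to 322 TPM in *in vitro* primordial oocytes, while *Zp2* and *Zp3* stood high in replicate 2 of the latter.

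The balance of the zona transcripts was examined next on the TPM scale, which divides by gene length. TPM does not adjust for differences between genes in amplification or library preparation. The ratios thus compare TPM values, not numbers of RNA molecules. *Zp1* exceeded *Zp3* in 10 of 12 LCM libraries and in 0 of 6 MII libraries. The 2 exceptions were replicates 1 and 3 of the *in vivo* primordial oocytes, in which the ratio of *Zp1* to *Zp3* was 0.279 and 0.297, compared with 4.77 in replicate 2. In *in vitro* primordial oocytes the ratio was 14.3, 1.72 and 6.73 in replicates 1, 2 and 3, of which replicates 1 and 3 were the highest of all libraries, while replicate 2 lay within the range of the primary oocytes. It was 1.11 to 2.48 in *in vivo* and 1.02 to 2.89 in *in vitro* primary oocytes, and 0.249 to 0.593 and 0.225 to 0.591 in *in vivo* and *in vitro* MII oocytes. *In vivo* and *in vitro* oocytes therefore overlapped in this ratio at every stage. As the kit changes with the stage, a difference of stage and one of library preparation cannot be told apart here.

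*Zp3* exceeded *Zp2* in 11 of 12 LCM libraries and in all 6 MII libraries. The ratio of *Zp3* to *Zp2* had a median of 1.52 and 1.98 in *in vivo* and *in vitro* primordial oocytes, 5.38 and 4.64 in primary oocytes, and 5.58 and 9.07 in MII oocytes. In the LCM libraries the primary oocytes ranged from 2.66 to 6.95 and the primordial oocytes from 0.863 to 5.05. Without replicate 2 of the *in vitro* group, which had the ratio of 5.05, all primordial libraries were below all primary libraries. That library was left out after its values were seen, and how often other gene pairs separate without it was not counted.

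In MII oocytes, *Zp3* made up 63.1% of the summed zona TPM *in vivo* and 68.6% *in vitro* on average, *Zp1* 27.9% and 22.2%, and *Zp2* 8.97% and 9.13% (n = 3 each). A two-sided exact permutation test found no difference past its threshold for *Zp3* (p = 0.8), *Zp1* (p = 0.2, 0.6 after adjustment over the 3 shares) or *Zp2* (p = 1). The smallest p that this exact test allows for 3 libraries against 3 is 0.1. In both groups the *Zp3* share varied more between replicates than between the group means, from 56.2% to 75.3% *in vivo* and from 53.1% to 78.6% *in vitro*. The difference between the *Zp3* means, 5.48 percentage points, was 13.3 points without replicate 2 *in vitro* and 0.482 points without replicate 1 *in vitro*.

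**Figure D2:**
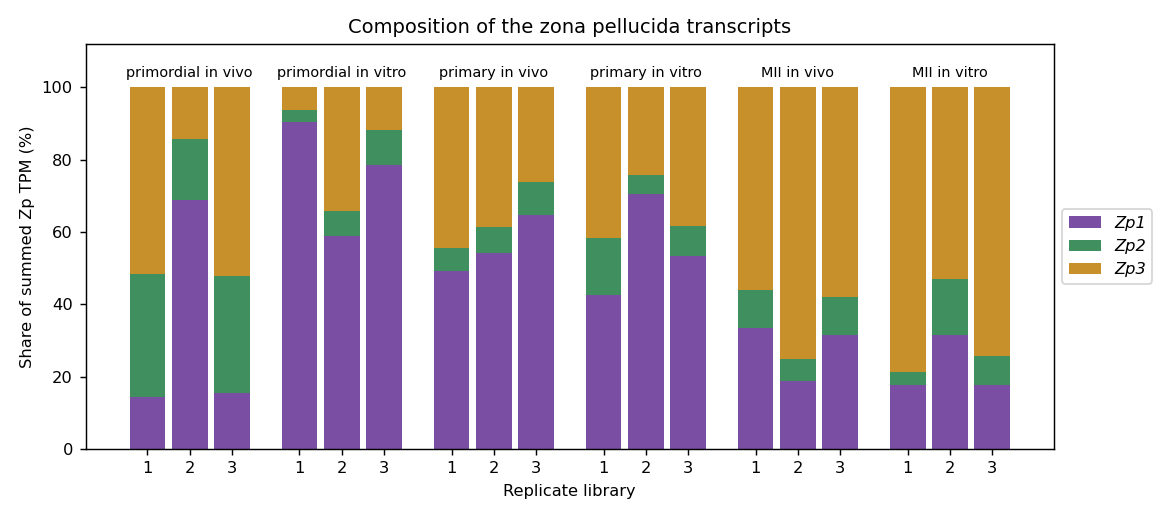
Stacked bars of the share of each gene in the summed TPM of *Zp1*, *Zp2* and *Zp3*, in percent, with 1 bar per replicate library. *Zp1* took 90.5% in replicate 1 of the *in vitro* primordial oocytes and 14.4% in replicate 1 of the *in vivo* primordial oocytes, and *Zp3* took 53.1% to 78.6% in the MII libraries.

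The first comparison asked whether culture altered the zona transcripts of primordial oocytes. *Zp1* was higher *in vitro* in every library, at 187, 201 and 30.7 CPM against 1.76, 19.9 and 1.04 CPM. The groups did not overlap in this gene, which was so, with higher values *in vitro*, for 2.04% of all genes tested. The fitted difference of *Zp1* was 4.20 ± 2.97 (log2, SE), an 18.4-fold higher level, but it did not pass the edgeR quasi-likelihood test (adjusted p = 0.542, 95% interval −1.61 to 10.02). Without replicate 2 of the *in vitro* group the *Zp1* difference was 3.85, and without replicate 2 of the *in vivo* group it was 6.63.

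*Zp3* differed by 3.26 ± 3.31 and *Zp2* by 1.59 ± 3.21 on the log2 scale in this comparison (edgeR adjusted p = 0.755 and 0.967), with overlapping groups. Without replicate 2 of the *in vitro* group, the *Zp3* difference was 0.92 and the *Zp2* difference 0.49. Both were smaller than with this library, but the median over all genes fell as well, from 0 to −0.61. EdgeR called 0 of the 3 zona genes and 0.0326% of all 15317 genes tested, and none of the 3 had an unadjusted p under 0.05, as 1799 genes (11.7%) did. DESeq2 called *Zp1* (log2 fold change 4.56, adjusted p = 0.0296) but not *Zp3* or *Zp2*, and it called 5.3% of all genes tested. The exact permutation test gave the smallest p it allows, 0.1, for *Zp1*, and 0.2 and 0.3 for *Zp3* and *Zp2*. Oocyte markers of the *in vitro* libraries went from 102 to 1978 TPM, with the lowest value in replicate 1, which nonetheless had 278 TPM of *Zp1*; their part in the difference was not tested.

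The same question was asked in primary oocytes, in which no zona gene differed beyond the fitted error. The log2 differences between *in vitro* and *in vivo* were −0.31 ± 2.61 for *Zp1*, −0.29 ± 3.14 for *Zp2* and −0.53 ± 3.04 for *Zp3* (SE), and the median of all genes was 0.44. All groups overlapped, whereas 8.74% of all genes lay wholly higher and 1.25% wholly lower *in vitro*. The edgeR adjusted p was 1 for each, and neither edgeR nor DESeq2 called a zona gene, while they called 0% and 1.66% of all genes (1479 genes, or 9.66%, had an unadjusted edgeR p under 0.05). The intervals were wide, −6.48 to 5.43 for *Zp3*, and leave room for large differences either way. They rest on the spread of a trend over all genes. The *Zp3* values themselves ran from 17.6 to 25.8 CPM *in vitro* and from 18.7 to 47.7 CPM *in vivo*. The culture effects at the 2 stages, which were fitted in 1 model, did not differ beyond their error for *Zp1* (primary minus primordial −4.51 ± 3.85, edgeR adjusted p = 0.810), *Zp3* (−3.79 ± 4.43, adjusted p = 0.950) or *Zp2* (−1.88 ± 4.47). These values were −4.15 for *Zp1*, −1.45 for *Zp3* and −0.78 for *Zp2* without replicate 2 of the *in vitro* primordial oocytes, and without replicate 2 of the *in vivo* primordial oocytes *Zp1* was at −6.94. This test called 0.104% of all genes, and 1765 genes (11.5%) had an unadjusted p under 0.05. DESeq2 called 3.62% of all genes for this difference and no zona gene.

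The next comparison asked how the zona transcripts differed between primordial and primary oocytes *in vivo*. On the CPM scale every primary library was above every primordial library for all 3 genes, which was so for 2.36% of all genes tested. *Zp3* was at 47.7, 18.7 and 31.0 CPM in primary oocytes against 4.20, 2.78 and 2.35 CPM in primordial oocytes. *Zp1* was at 79.4, 39.1 and 115 CPM against 1.76, 19.9 and 1.04 CPM. *Zp2* was at 14.1, 7.15 and 22.3 CPM against 5.70, 6.64 and 2.97 CPM. The separation of *Zp2* was narrow, and on the TPM scale its groups overlapped (8.95 to 29.5 against 2.84 to 9.31 TPM), so that 2 of the 3 genes were separated there.

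The fitted differences were 3.38 ± 3.33 for *Zp3*, 3.36 ± 2.85 for *Zp1* and 1.51 ± 3.20 for *Zp2* (log2, SE), or 10.4-, 10.3- and 2.85-fold higher levels in primary oocytes. Without replicate 2 of the *in vivo* primordial oocytes, the *Zp1* difference was 5.79. None passed the edgeR test (adjusted p = 0.747, 0.677 and 0.957), which called 0.0522% of all genes, and none had an unadjusted p under 0.05, as 1713 genes (11.2%) did. DESeq2 called none of the 3 either, with adjusted p = 0.0847 for *Zp3* and 0.10 for *Zp1*, and it called 3.64% of all genes. The exact permutation test gave its smallest possible p, 0.1, for each gene. The summed blood and vessel markers were at 7.77 to 424 TPM in primordial and 1226 to 7510 TPM in primary libraries here. Haemoglobin genes led the sum in the primary libraries. *Hba-a1* had 7503 of 7510 TPM in replicate 1 and 1189 of 3499 TPM in replicate 2, and *Hbb-bs* had 1157 of 1226 TPM in replicate 3. *Ptprc*, *Adgre1* and *Pecam1* were at 0 in all libraries of both groups. The part of the blood and vessel markers in the result was not tested.

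The same step between stages was then examined *in vitro*. *Zp1* differed by −1.15 ± 2.64 between primary and primordial oocytes, *Zp2* by −0.37 ± 3.14 and *Zp3* by −0.41 ± 3.04 (log2, SE; edgeR adjusted p = 1 for each), and the median of all genes was 0.44. Each pair of groups overlapped, whereas 9.87% of all genes lay wholly higher and 1.34% wholly lower in primary oocytes. The sign of 2 genes changed when replicate 2 of the *in vitro* primordial oocytes was left out. Without it *Zp3* was 1.93 and *Zp2* 0.73 higher in primary oocytes, whereas *Zp1* was still lower (−0.79), and the median of all genes was 1.43. The sign of *Zp3* and *Zp2* also changed under other settings that kept every library, which are given below with the dependence on processing. EdgeR called 0% and DESeq2 2.94% of all genes, none of them a zona gene, and 1673 genes (10.9%) had an unadjusted edgeR p under 0.05. The difference between the *in vivo* and the *in vitro* step is the interaction given above, which no zona gene passed. These 4 comparisons share libraries in pairs, so they are not independent of each other.

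With *in vivo* and *in vitro* pooled, primary minus primordial was 1.49 ± 2.19 for *Zp3*, 1.11 ± 1.86 for *Zp1* and 0.57 ± 2.22 for *Zp2* (log2, SE), against a median of 0.34 over all genes. Leaving out replicate 2 of the *in vitro* primordial oocytes gave differences of 2.66 for *Zp3*, 1.28 for *Zp1* and 1.12 for *Zp2*, against a median of 0.75 (edgeR adjusted p = 0.802 for *Zp3*). The *Zp1* difference was 2.32 without replicate 2 of the *in vivo* primordial oocytes, and *Zp2* was at 0.34 without replicate 3 of the *in vivo* primary oocytes. EdgeR called none of them and 0% of all genes, with 1894 genes (12.4%) at an unadjusted p under 0.05, and DESeq2 called no zona gene and 4.34% of all genes. An exact permutation test of log2 CPM within each growth condition, added after the data were seen, gave p = 0.04 for *Zp3* (difference 2.04, smallest possible p = 0.005), 0.225 for *Zp1* and 0.185 for *Zp2*. It was 1 of 18 such tests and its p is not adjusted for them. Of the 6 primary libraries, all had more *Zp3* than 5 of the 6 primordial libraries, the exception again being replicate 2 *in vitro*. These are the values behind the p of 0.04, and the share of all genes with this pattern was not counted. Within single growth conditions, 2.36% of all genes lay wholly higher in primary oocytes *in vivo* and 9.87% *in vitro*.

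The last comparison asked whether MII oocytes grown in culture carried other amounts of zona transcripts than ovulated ones. *Zp1* was at 71.8, 92.5 and 85.9 CPM *in vitro* and 85.7, 88.9 and 102 CPM *in vivo*. *Zp2* was at 20.3, 63.1 and 54.8 CPM against 37.3, 39.0 and 46.3 CPM, and *Zp3* at 213, 105 and 241 CPM against 96.6, 239 and 126 CPM. Each pair of groups overlapped, and for *Zp3* both groups held values near 100 and above 200 CPM. The log2 differences were −0.15 ± 0.32 for *Zp1* (95% interval −0.83 to 0.53), 0.17 ± 0.43 for *Zp2* (−0.76 to 1.10) and 0.28 ± 0.41 for *Zp3* (−0.61 to 1.17), with edgeR adjusted p of 0.920, 0.935 and 0.877. EdgeR called 0.35% and DESeq2 2.05% of all 17144 genes tested, and neither called a zona gene, while 1743 genes (10.2%), none of them a zona gene, had an unadjusted edgeR p under 0.05. The errors were several times smaller than in the LCM libraries, and the intervals leave out changes of *Zp1* in MII oocytes of more than 0.83 (log2) downwards or 0.53 upwards. Exact permutation p-values were 0.5, 1 and 0.7. The *Zp3* difference was 0.75 without replicate 2 of the *in vivo* MII oocytes, 0.56 without replicate 2 of the *in vitro* ones, and 0.03 without replicate 1 *in vivo* or replicate 3 *in vitro*.

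**Figure D3:**
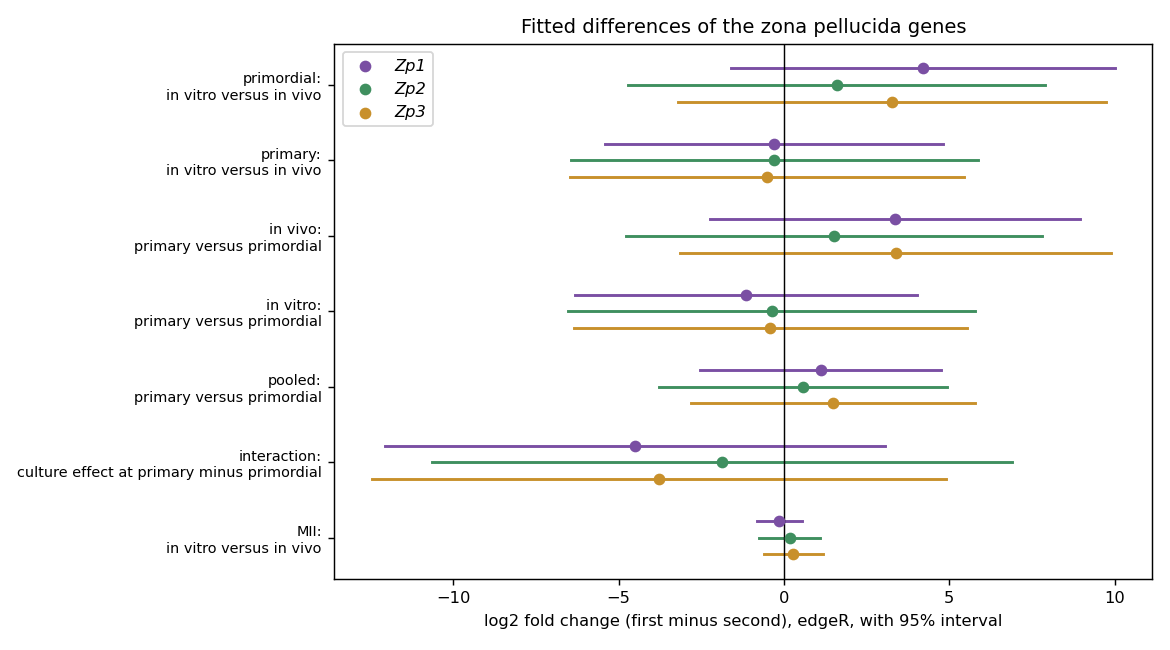
Fitted log2 fold changes (points) with 95% intervals (lines) of edgeR for *Zp1*, *Zp2* and *Zp3* in each comparison, first group minus second. Every interval crosses 0; those of the MII comparison, such as −0.83 to 0.53 for *Zp1*, are much narrower than those of the LCM comparisons, such as −1.61 to 10.02.

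How alike the zona genes were across libraries was described with Pearson's r of log2 CPM, without a test, since the libraries share groups and library-wide differences in depth and oocyte RNA. Over the 12 LCM libraries r was 0.89 for *Zp2* and *Zp3*, 0.77 for *Zp1* and *Zp2*, and 0.73 for *Zp1* and *Zp3*. Without replicate 2 of the *in vitro* primordial oocytes (n = 11) the values were 0.86, 0.76 and 0.68. Over the 6 MII libraries, *Zp1* and *Zp2* had r = 0.77, whereas *Zp3* had −0.44 with *Zp1* and −0.31 with *Zp2* (Spearman's rho 0.71, −0.0857 and 0.0857).

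The genes most like each member over the 12 LCM libraries were sought among 8821 genes. For *Zp3* they were the predicted gene *Gm45410* (r = 0.96), *Gdf9* (0.92), *Rhpn2* (0.91), *Rspo2* (0.91), which encodes an R-spondin that oocytes secrete, and the transcription factor gene *Mef2d* (0.90), with *Zp2* in place 6. For *Zp2* they were *Kpna7*, an importin alpha of oocytes and early embryos (0.90), *Nlrp14*, a germ cell NLRP gene (0.90), *Zp3* itself in place 3, the tubulin gene *Tubb4b* (0.87) and *Rspo2* (0.87). For *Zp1* they were *Ube2n*, a ubiquitin-conjugating enzyme (0.91), *R3hdm4* (0.91), *Ahsa1*, a co-chaperone of HSP90 (0.90), *Fbxl19* (0.90) and *Rheb*, a GTPase that activates mTORC1 (0.89). *Zp2* and *Zp3* came in places 37 and 69 of the genes most like *Zp1*.

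*Gdf9* was set beside all 3 genes because of its r with *Zp3*, so that the highest of the values that follow was fixed by the choice. Over the 12 LCM libraries its r was 0.92 with *Zp3*, 0.83 with *Zp2* and 0.53 with *Zp1*, and 0.91, 0.79 and 0.45 without replicate 2 of the *in vitro* primordial oocytes. Replicate 1 of that group had 3.34 TPM of *Gdf9* and 278 TPM of *Zp1*, and replicate 3 had 0.382 TPM of *Gdf9* and 49.8 TPM of *Zp1*. In these libraries *Zp1* was high beside low *Gdf9*, whereas *Zp3* was at 19.4 and 7.40 TPM. In MII oocytes *Gdf9* was at 8623 to 14549 TPM *in vivo* and 4976 to 7601 TPM *in vitro*, with r of −0.56, 0.00637 and 0.26 for *Zp3*, *Zp2* and *Zp1* (n = 6). The median of *Gdf9* was 105 TPM in *in vivo* primary and 10715 TPM in *in vivo* MII oocytes, while that of *Zp1* was 98.8 and 125 TPM, of *Zp2* 12.8 and 40.0 TPM, and of *Zp3* 84.2 and 272 TPM. These medians come from different kits and are given without a test.

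**Figure D4:**
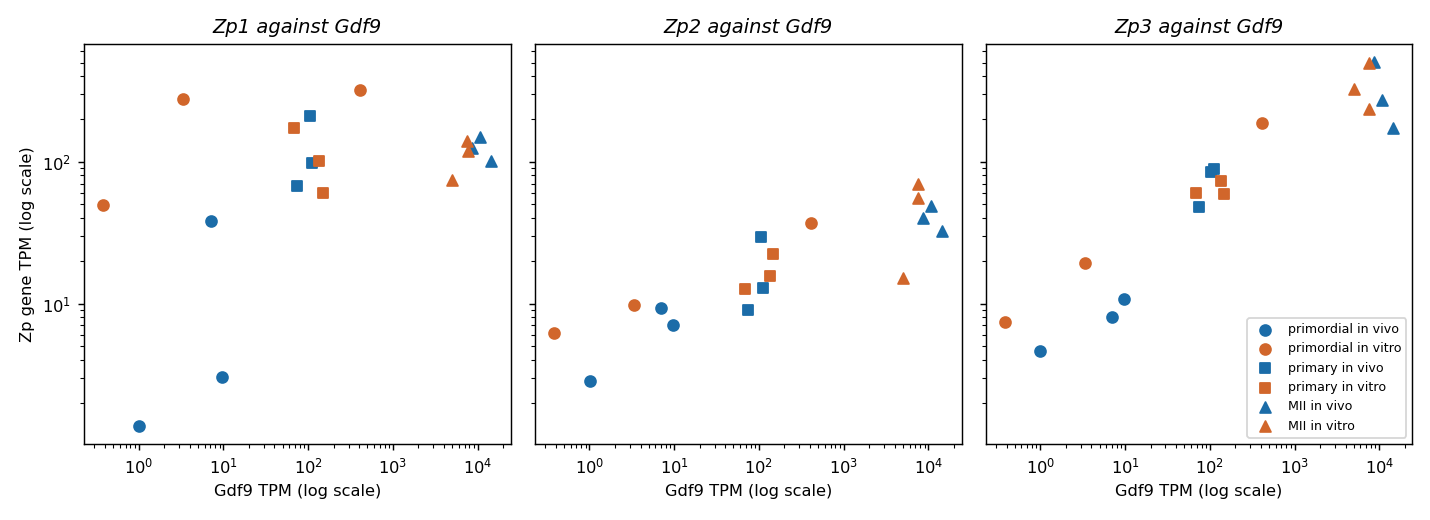
TPM of each zona gene against TPM of *Gdf9*, both on log axes, with 1 point per library; circles are primordial, squares primary and triangles MII oocytes, blue *in vivo* and orange *in vitro*. *Gdf9* was chosen for its r with *Zp3* over the LCM libraries (0.92 on log2 CPM), and *Zp1* is at 278 TPM in an *in vitro* primordial library with 3.34 TPM of *Gdf9*.

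Genes that transcribe, process and surround the zona were examined as 5 lists. EdgeR called none of the listed genes in any comparison. At an unadjusted edgeR p under 0.05 stood 7 of the 39 tested genes between *in vitro* and *in vivo* primordial oocytes, 6 of 39 between the stages *in vivo*, 1 of 39 in each of the other LCM comparisons, and 6 of 43 in MII oocytes, against 11.7%, 11.2% and 10.2% of all genes in the first, second and last of these, and 9.66% (primary), 10.9% (stages *in vitro*), 12.4% (pooled) and 11.5% (interaction) in the others. Among 11 transcription and oocyte factors, *Figla* was low in every group, at 13 to 28 counts in *in vivo* and 8 to 37 counts in *in vitro* primordial oocytes, 7 to 10 and 1 to 15 counts in primary oocytes, and 0 to 12 and 2 to 10 counts in MII oocytes. Its log2 difference was −1.31 between *in vivo* primary and primordial oocytes, opposite in sign to those of the zona genes, and −0.29 between *in vitro* and *in vivo* primordial oocytes. *Nobox*, a homeobox factor of early follicles, had 106, 107 and 106 counts in *in vivo* and 10, 203 and 27 counts in *in vitro* primordial oocytes, the highest again in replicate 2. *Tcf12*, which like *Tcf3* encodes an E-protein that binds E-boxes, had 6689 to 9706 counts in *in vivo* and 6254 to 42285 counts in *in vitro* primordial oocytes. *Foxo3*, which restrains primordial follicle activation, had 2847 to 49263 and 23144 to 35575 counts there, and *Lhx8*, a LIM homeobox factor of oocytes, 673 to 13862 and 368 to 1303 counts. These groups of primordial oocytes overlapped, and neither edgeR nor DESeq2 called *Tcf3*, *Tcf12*, *Foxo3* or *Lhx8* in any comparison. The median differences were 0.78 in primordial oocytes (*in vitro* minus *in vivo*; 0 over all genes) and 0.09 between the stages *in vivo* (0 over all genes). With genes at or under 3 counts throughout a group set at their bound, or left out where no bound could be given, the medians were 0.24 over 10 genes against −0.14 over all genes, and 0.09 against −0.12. The first of these comparisons had a median of −0.55 without replicate 2 of the *in vitro* primordial oocytes, against −0.61 over all genes. DESeq2 called *Taf4b*, a germ cell TFIID subunit, higher *in vitro* in primordial oocytes (adjusted p = 0.0227; 14, 10 and 1327 counts against 5, 1 and 0), and the general factor *Gtf2b* higher in primary oocytes *in vivo* (adjusted p = 0.0172; 4973, 1274 and 49 counts against 0, 15 and 26).

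Of 10 genes for processing, secretion and hardening of the zona, 9 were in the count table and were tested. *Pdia3*, a disulfide isomerase of the secretory route, and the most abundant of this list in the LCM libraries, was at 406 to 1148 TPM in *in vivo* and 1355 to 2627 TPM in *in vitro* primordial oocytes. These groups did not overlap in TPM or in CPM, and *Pdia3* was not called. On the CPM scale 2.04% of all genes tested lay wholly higher in the *in vitro* group. *Furin*, the type of protease that cleaves zona precursors, had 1037 to 3359 and 1882 to 6195 counts, with overlapping TPM. The related convertase gene *Pcsk6* had 2685 to 9471 and 59 to 4660 counts, again with overlapping TPM. *Astl* encodes ovastacin, which cleaves ZP2 after fertilisation. It had 15, 12 and 0 counts in *in vivo* and 1796, 85 and 1 counts in *in vitro* primordial oocytes, and DESeq2 called it higher *in vitro* (adjusted p = 0.00907) while edgeR did not (adjusted p = 0.461). Its groups overlapped, and the replicate with the most *Astl* was 1, not 2. In MII oocytes *Astl* was even, at 2101 to 2368 counts *in vivo* and 1595 to 2296 counts *in vitro* (log2 difference −0.28 ± 0.33, edgeR adjusted p = 0.824). The glycosyltransferase genes *B4galt1* (higher *in vitro* in primordial oocytes, adjusted p = 0.0313) and *Mgat2* (higher *in vitro* in primary oocytes, adjusted p = 0.0228, and lower in primary than in primordial oocytes *in vivo*, adjusted p = 0.00801) were called by DESeq2 and not by edgeR.

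The list of oocyte-secreted and zona-region proteins, which includes *Gdf9*, had fitted differences of the same sign as the zona genes in both comparisons with *in vivo* primordial oocytes. Between *in vitro* and *in vivo* primordial oocytes all 9 tested genes had a positive difference, with a median of 4.67 against 0 over all genes, and between the stages *in vivo* all 9 were positive as well, with a median of 4.24 against 0. Without replicate 2 of the *in vitro* primordial oocytes, the first comparison had 5 of 9 positive and a median of 0.38, against −0.61 over all genes, and *Gdf9* (−1.43), *Padi6* (−1.17), *Nlrp5* (−1.05) and *Tle6* (−0.58) were negative. The second comparison does not involve that library. Both comparisons share the *in vivo* primordial libraries. Some of these genes were at or under 3 counts in every *in vivo* primordial library, and with such genes at their lower bound the medians were 2.34 and 2.19, against −0.14 and −0.12 over all genes treated in the same way. At an unadjusted edgeR p under 0.05 stood 3 and 2 of the 9, against 11.7% and 11.2% of all genes. DESeq2 called *Khdc3*, a subunit of the subcortical maternal complex, in both (adjusted p = 0.00815 and 0.0334; 0 counts in all *in vivo* primordial libraries, 0, 170 and 20 *in vitro*, and 10, 18 and 31 in *in vivo* primary oocytes). *Bmp15*, the partner of *Gdf9*, had 0, 1 and 0 counts in *in vivo* primordial oocytes and 24, 0 and 38 counts in *in vivo* primary oocytes. At the same stages the zona genes had 20 to 536 and 178 to 2115 counts, so zona RNA was counted in every *in vivo* primordial library while *Bmp15* was under the floor of 3 counts.

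In MII oocytes the list had a median difference of −0.08 against 0.04 over all genes, and 5 of 11 genes were positive. *Oosp1*, an oocyte-secreted protein gene, was at 13527 to 17580 counts *in vivo* and 13011 to 17636 counts *in vitro*, and *Zar1*, a maternal factor, at 3672 to 10322 and 1378 to 10669 counts. *Bmp15* had 2707, 2722 and 1722 counts *in vivo* and 4720, 5386 and 5543 counts *in vitro*, without overlap (1.02 ± 0.34, edgeR adjusted p = 0.357). *Izumo1r*, which encodes the egg receptor JUNO for sperm IZUMO1, had 302, 491 and 408 counts *in vivo* and 147, 209 and 184 counts *in vitro*, again without overlap (−1.25 ± 0.39, edgeR adjusted p = 0.303, DESeq2 adjusted p = 0.0548). Groups that do not overlap made up 9.37% of genes with higher and 6.81% with lower values *in vitro*. Of the 4 tested genes of the egg surface list, 2 were positive, with a median of −0.24. The tetraspanin gene *Cd9*, whose product is needed for gamete fusion, had 35 to 125 counts in *in vivo* and 81 to 262 counts in *in vitro* MII oocytes. In the LCM libraries *Cd9* ranged from 0 to 20220 counts and *Cd81*, its close relative, from 1 to 14396 counts, and neither was called. *Cd9* was at 276 to 748 CPM in *in vitro* and 0.0522 to 66.9 CPM in *in vivo* primordial oocytes, without overlap. Between these 2 groups of primordial oocytes, 2.04% of all genes tested lay wholly higher *in vitro*.

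The list of other zona pellucida domain genes also holds *Zp3r*, a sperm protein gene that lacks this domain despite its name, and *Zp4-ps*. Of the 12 genes listed, 6 passed the count filter in the LCM and 9 in the MII libraries, and edgeR and DESeq2 called none of them. *Tecta* and *Dmbt1* had 0 counts in all 18 libraries. *Tgfbr3*, a TGF-β co-receptor, had the most counts of the list, at 0 to 1161 counts in the LCM and 272 to 826 counts in the MII libraries. *Zp4-ps*, the mouse pseudogene of the *Zp4* that other mammals carry, had 0 to 14 counts in the LCM and 4 to 33 counts in the MII libraries, far below the zona genes, and as a pseudogene its counts are uncertain.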

How the data were processed

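Per the labels and the study's methods, the authors trimmed reads with Trim Galore 0.4.1, mapped them to mm10 with TopHat2, counted them per gene with featureCounts and tested them with DESeq2. Strandedness and the handling of reads with several matches are not given in the sources used here. They deposited whole read counts per gene, without normalization, and TPM values. In the deposited TPM, 21662 of 21662 genes with counts above 0 in at least 2 libraries were the counts divided by 1 length per gene (within 0.1%) and scaled per library. Of 53715 gene identifiers, 53620 matched GENCODE release 21, which gave names and coordinates. The *Zp3* promoter is from RefSeq (GRCm38.p6).

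Groups and replicate numbers came from the sample labels. Counts were tested with edgeR 4.0.16 in R 4.3.3 (genes with at least 10 counts in total, TMM, glmQLFit with robust = TRUE, glmQLFTest), with 1 model for the 12 LCM and another for the 6 MII libraries. Calls needed a fold change of at least 2 and a p under 0.05 after Benjamini-Hochberg adjustment over all genes tested. CPM values are after TMM. In the LCM model all genes took the spread of the common trend (biological coefficient of variation 2.02, against 0.726 in the MII model). The script was tested on simulated counts. Shares of summed TPM were compared with exact permutation tests.

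The zona genes and the gene lists were chosen with earlier results of these data known. From each list, the text names genes called in a comparison and otherwise up to 4 with high mean CPM. *Figla*, *Nobox*, *Astl*, *Bmp15*, *Izumo1r*, *Zp4-ps*, *Tecta* and *Dmbt1* are named for their roles or after their values were seen. For likeness it names the 5 genes with the highest r of log2 CPM (prior count 2) among genes with more than 3 counts in at least 6 of the 12 libraries. *Gdf9* was set beside all 3 zona genes after its r with *Zp3* was seen. Alternatives were DESeq2 1.42.0, DESeq2-type size factors, other count filters, limma 3.58.1 (voom with quality weights, and log2 TPM with pseudocounts of 1 and 0.1), a replicate block, only the groups compared, leaving out each library and, added after the data were seen, exact permutation tests per gene and the lists without replicate 2 of the *in vitro* primordial oocytes.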

Additional observations from a re-analysis of the deposited data

How the results depend on the processing

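Of the values for single zona genes, 183 kept their direction and their side of the threshold under settings other than leaving out a library, 13 reversed and 2 passed the threshold. The settings include the exact permutation tests per gene. Those of 3 libraries against 3 could not pass, as their smallest p is 0.1, so for them only the direction could change. *Zp1* in primordial oocytes passed with DESeq2 (4.56, adjusted p = 0.0296), against an adjusted p of 0.480 to 0.946 in the other settings. *Zp3* between the pooled stages passed the exact permutation test (2.04, p = 0.04), whose p was not adjusted, unlike in the other settings. All reversed differences were uncalled and small as reported, but some were larger after the reversal. The *Zp2* difference in primary oocytes became 0.12 and 0.13 with limma on log2 TPM (pseudocounts 1 and 0.1), and in MII oocytes −0.027 and −0.036. Between the stages *in vitro*, *Zp2* became 0.17 with voom, 0.28 and 0.32 on log2 TPM and 0.037 in the permutation test, and *Zp3* 0.95, 1.02 and 1.08, and 0.79. In each case the cause was not tested.

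With the replicate number as a block, that *Zp3* difference was 0.12 and the *Zp1* difference in primordial oocytes 4.84. The numbers share only a label: same-numbered libraries correlated at −0.027 to 0.090 in their deviations. The block changed no other direction or call of a zona gene.

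Leaving out 1 library reversed 6 values for single genes and 2 shares, while 228 and 16 stayed as reported. For the shares only the direction could change, since their exact test cannot pass the threshold with so few libraries. The ranges were −1.02 to 0.086 for *Zp1* and −0.62 to 0.16 for *Zp2* in primary oocytes, −0.77 to 0.73 for *Zp2* and −0.93 to 1.93 for *Zp3* between the stages *in vitro*, −0.12 to 0.53 for *Zp2* in MII oocytes, and −3.06 to 2.90 percentage points for the *Zp2* share. Called genes ranged from 0 to 13 (primordial, *in vitro* against *in vivo*), 0 to 4 (primary), 0 to 11 (stages *in vivo*), 0 to 2 (stages *in vitro*), 0 to 19 (pooled), 0 to 20 (interaction) and 11 to 378 (MII).

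The number of called genes over the whole table depended strongly on the test. In that order of comparisons it was 5, 0, 8, 0, 0, 16 and 60 as reported, 812, 254, 557, 450, 664, 554 and 351 with DESeq2, and 33, 316, 47, 262, 48, 65 and 463 with voom. With median-of-ratios size factors it was 1 in primary oocytes and 24 for the pooled stages, with filterByExpr 0 in the LCM comparisons, without a filter 0 there except 1 for the interaction, and 263 in MII oocytes. On log2 TPM it was 0 in the LCM comparisons, with the block 1 in primordial oocytes and 0 for the other LCM comparisons, and with only the groups compared 9, 5 and 3 in the first 3 comparisons. The last was not run for the pooled, interaction and MII comparisons, where it does not apply. Median-of-ratios size factors moved the median log2 difference of all genes from 0.44 to 0.17 in primary oocytes, from 0.44 to 0.21 between the stages *in vitro* and from 0.91 to 0.61 for the interaction, and turned the sign of no zona gene. With them 8 of 17 called genes were higher for the interaction and 8 of 11 between the stages *in vivo*, against 11 of 16 and 5 of 8 as reported. No zona gene fell to the floor of 3 counts in any library.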
